A study of Mus musculus with 6 samples.

Results

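Genes for CXCR2 ligands, a related platelet chemokine and the receptors were followed in bulk RNA sequencing of mouse tumors. They were the ligand genes *Cxcl1*, *Cxcl2*, *Cxcl3*, *Cxcl5* and *Ppbp*, the platelet chemokine gene *Pf4* and the receptor genes *Cxcr1* and *Cxcr2*. These 8 genes were chosen by symbol, as the ELR chemokines, the platelet CXC chemokines and their receptors, out of 54309 gene identifiers in the deposited table. MCA205, a fibrosarcoma line that 3-methylcholanthrene induced in a C57BL/6 mouse, was grown under the skin of the right flank of female C57BL/6J mice that were 7 weeks old. The control group of 3 tumors came from mice that drank MilliQ water, and the FF-10101 group of 3 tumors came from mice that drank water with FF-10101 at 0.1 mg/mL from day 1. All tumors were taken on day 8. FF-10101 is a covalent inhibitor of the receptor tyrosine kinase FLT3 that also inhibits CSF1R, the receptor on which most tumor-associated macrophages depend. The labels name no transgene or deletion in either group, and every tumor grew from the same transplanted line, so the groups stand for 1 sarcoma model.

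CXCR2 is a G protein–coupled receptor best known on neutrophils, where it drives release from the marrow and migration toward sites of inflammation. It is activated by the ELR chemokines, which carry the residues glutamate, leucine and arginine ahead of their CXC motif and are made by stromal, epithelial, tumor and myeloid cells after stimulation by interleukin 1, interleukin 17, TNF or Toll-like receptor ligands. *Ppbp* and *Pf4* encode chemokines stored in platelet granules, and *Pf4*, whose protein lacks the ELR residues and is not a classical CXCR2 agonist, is also expressed by resident macrophages.

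Between 9143806 and 13258258 reads were recovered per tumor, and all values below are normalized counts, that is, reads scaled by each tumor's size factor. A count of 0 allows up to 3 reads, or 2.29 to 3.38 normalized counts depending on the tumor. The sarcoma and fibroblast markers *Vim*, *Col1a1*, *Col1a2* and *Col3a1* were abundant in each tumor. Control tumor 1 stood apart from the other controls, with endothelial markers summing to 5312 normalized counts against 2040 and 1481, and it received the lowest array weight of the 6 tumors (0.139). FF-10101 tumor 1 held the most keratinocyte transcripts, with a summed level of 997 normalized counts against 33.8 to 209 in the other 5 tumors. Results are therefore given with and without control tumor 1, and where it bears on them without FF-10101 tumor 1. The values are sums over all cells of a tumor, so more cells of a type and more RNA per cell cannot be told apart. The labels give replicate numbers and no further origin, and p-values measure the spread between these tumors.

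The chemokine genes lie next to each other on mouse chromosome 5 in the order *Cxcl5*, *Ppbp*, *Pf4*, *Cxcl3*, *Cxcl1* and *Cxcl2*, with *Cxcl15* between *Cxcl3* and *Cxcl1*, while *Cxcr2* and *Cxcr1* are neighbors on chromosome 1. Promoters were read for 7 of the 8 members from RefSeq (assembly GRCm38.p6, another build than the GRCm39 annotation behind the counts), and *Cxcl5* was not matched. The 120 bases ahead of the transcription start are shown for 4 genes of the cluster, since *Cxcl1*, *Cxcl2* and *Cxcl3* share a pattern there and *Pf4*, which lies between them and *Ppbp*, does not hold it. They lie on the plus strand at chr5:90891125-90891244 (*Cxcl1*), chr5:90903779-90903898 (*Cxcl2*), chr5:90785981-90786100 (*Cxcl3*) and chr5:90772315-90772434 (*Pf4*). Capitals mark matches to the NF-κB pattern GGGNNN followed by TTCC, searched on both strands, where overlapping matches run together.
Cxcl1: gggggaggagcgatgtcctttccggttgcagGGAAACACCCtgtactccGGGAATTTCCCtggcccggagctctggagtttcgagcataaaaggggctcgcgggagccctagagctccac
Cxcl2: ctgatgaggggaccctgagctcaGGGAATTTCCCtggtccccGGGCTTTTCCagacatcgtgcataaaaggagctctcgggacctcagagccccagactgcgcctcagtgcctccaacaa
Cxcl3: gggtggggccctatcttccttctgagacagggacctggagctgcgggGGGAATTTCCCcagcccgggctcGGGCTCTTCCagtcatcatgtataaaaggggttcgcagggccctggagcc
Pf4: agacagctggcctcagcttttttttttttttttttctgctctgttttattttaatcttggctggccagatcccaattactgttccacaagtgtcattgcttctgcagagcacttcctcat
The same 10 bases, GGGAATTTCC, began 71 bases ahead of the start in *Cxcl1*, 97 in *Cxcl2* and 73 in *Cxcl3*, and each of these promoters held a further match in the same window. Over the full promoter of 300 bases, the NF-κB pattern was found in 3 of the 7 members (*Cxcl1*, *Cxcl2* and *Cxcl3*) and in 5.56% of 32851 mouse promoters. The letters TATAAA were found in *Cxcl3*, 30 bases ahead of the start, and in *Ppbp*, and in 13.6% of all promoters. The AP-1 pattern TGANTCA was found in *Ppbp* alone of the 7, and in 7.81% of all promoters. In *Pf4*, *Cxcr1* and *Cxcr2* none of the 3 patterns occurs in this window. These matches describe letters and are not measured binding sites.

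Of the 8 members, 5 had groups that did not overlap. *Cxcl1*, *Cxcl2*, *Cxcl5* and *Cxcr2* were higher in every FF-10101–treated tumor than in every control tumor, and *Pf4* was lower in every treated tumor. Over the 13963 genes tested, whose mean reached 10 normalized counts, groups were apart for 20.2% (10.9% higher and 9.37% lower with FF-10101). Of the 7 members that passed that minimum, 6 were apart without control tumor 1 (5 higher and 1 lower), against 54.1% of all genes tested (28.4% higher and 25.7% lower), and 5 without FF-10101 tumor 1, against 39.2%. None of the members passed an adjusted p of 0.05 in limma with all 6 tumors, a rule that called 0.043% of the genes tested. At an unadjusted p of 0.05, limma counted 5 of these 7 members (4 higher and 1 lower), against 16.3% of all genes tested (8.77% higher and 7.49% lower). Without control tumor 1, limma called 6 members at an adjusted p of 0.05, 5 higher and 1 lower, and 21.9% of all genes tested (12% higher and 9.88% lower). No member was called in the fits that each left out another tumor. The median log2 fold change of the 7 was 2.13, against 0.02 over all genes tested, and *Ppbp* passed the minimum only through control tumor 1. The exact permutation test with 3 tumors a group cannot give a p below 0.1.

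**Figure D1:**
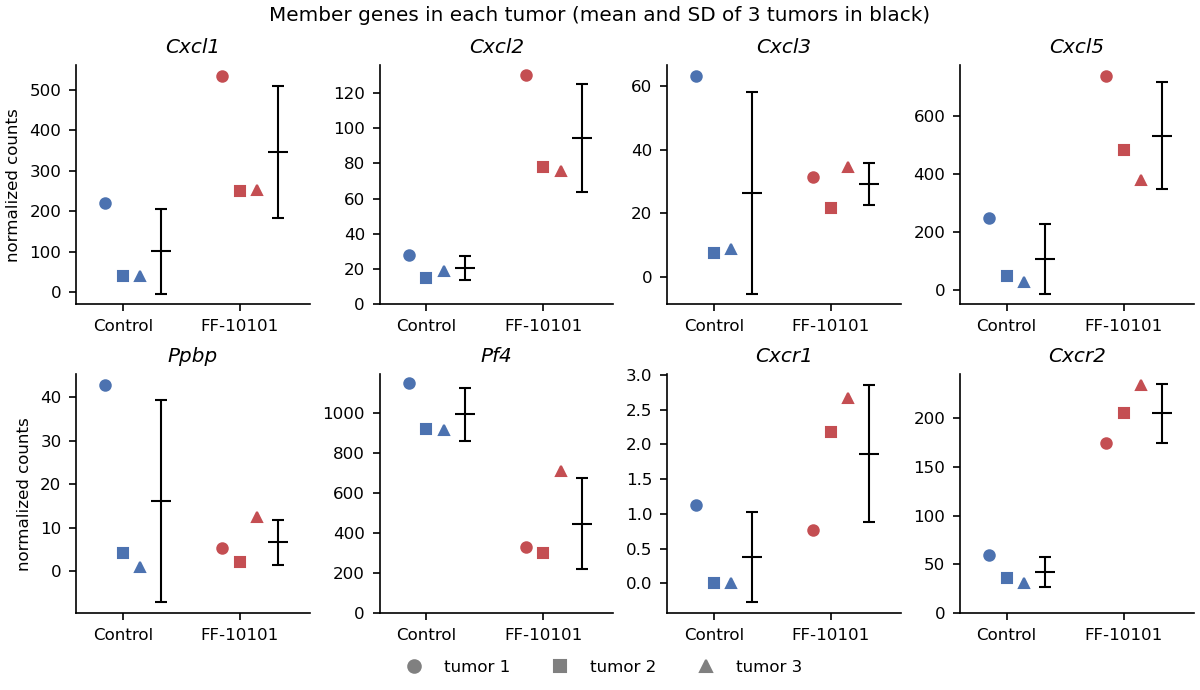
Normalized counts (y axis, from a different range in each panel) of the 8 genes in 3 control (blue) and 3 FF-10101–treated (red) tumors, with symbols for tumors 1, 2 and 3 and the mean and SD of each group in black. *Cxcl1*, *Cxcl2*, *Cxcl5* and *Cxcr2* lie higher in all treated tumors and *Pf4* lies lower, while *Cxcl3*, *Ppbp* and *Cxcr1* overlap.

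*Cxcl1* (ENSMUSG00000029380), the mouse gene for the chemokine KC and an early product of stimulated stromal cells, had 221, 40.2 and 41.0 normalized counts in control tumors 1, 2 and 3. It had 533, 249.7 and 253 in FF-10101–treated tumors 1, 2 and 3. The groups did not overlap, but control tumor 1 came close to the lowest treated tumor and stood far above the other controls. The means were 101 ± 104 and 345 ± 163 (SD, n = 3 each), and limma gave a log2 fold change of 2.16 (standard error 0.65, 95% confidence interval 0.65 to 3.66, adjusted p = 0.229). Without control tumor 1 the log2 fold change was 2.96 (adjusted p = 0.00166 from limma), and without FF-10101 tumor 1, the highest, it was 1.80 (adjusted p = 0.285 from limma). Of all genes tested, 0.845% had a larger log2 fold change than *Cxcl1*.

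*Cxcl2* (ENSMUSG00000058427), which encodes MIP-2, a chemokine made in quantity by activated myeloid cells, had few reads in the controls. Its normalized counts were 28.1, 15.2 and 18.9 in control tumors 1, 2 and 3. They were 129.8, 78.2 and 75.6 in the treated tumors in the same order. The highest control was thus well under the lowest treated tumor, and control tumor 1 was less far from the other controls than it was for *Cxcl1*. The log2 fold change was 2.13 (standard error 0.36, 95% confidence interval 1.30 to 2.97), the gene ranked 28 by unadjusted p among the 13963 tested, and the adjusted p from limma was 0.184. It was 2.37 without control tumor 1 (adjusted p = 0.00399 from limma) and 1.88 without FF-10101 tumor 1 (adjusted p = 0.251 from limma).

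*Cxcl3* (ENSMUSG00000029379), the close relative whose promoter holds the same 10 bases, did not show this separation. Control tumors 1, 2 and 3 had 63.0, 7.61 and 8.87 normalized counts. The treated tumors had 31.3, 21.7 and 34.7. Control tumor 1 was the highest of all 6 tumors, while the other controls were the lowest, so the groups overlapped. The log2 fold change was 0.76 (standard error 0.76, 95% confidence interval −1.0 to 2.51, adjusted p = 0.639 from limma). Single tumors moved this value: the log2 fold change was 1.69 without control tumor 1 (adjusted p = 0.0287 from limma), 0.24 without control tumor 2 and 0.34 without control tumor 3. The transcripts of *Cxcl2* and *Cxcl3* share 80 stretches of 31 bases, which is 4.37% and 8.11% of those in each, so the division of reads between these genes has some uncertainty.

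*Cxcl5* (ENSMUSG00000029371), which encodes LIX, a ligand that fibroblasts and epithelial cells make under interleukin 17 and TNF, had the largest log2 fold change of the 8 genes in this fit. Its normalized counts were 247, 48.9 and 27.7 in control tumors 1, 2 and 3, and 736, 481 and 377 in the treated tumors. As for *Cxcl1*, tumor 1 was the highest in each group and the groups did not overlap. The log2 fold change was 2.85 (standard error 0.71, 95% confidence interval 1.21 to 4.50, adjusted p = 0.229 from limma), and 0.229% of the genes tested had a larger one. It was 3.76 without control tumor 1 (adjusted p = 0.000681 from limma) and 2.59 without FF-10101 tumor 1 (adjusted p = 0.257 from limma). That treated tumor held the keratinocyte transcripts and was also the highest of the 3 for *Cxcl1*, *Cxcl2* and *Cxcl5*, and the part of keratinocytes in these levels was not tested, beyond the values without it.

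**Figure D2:**
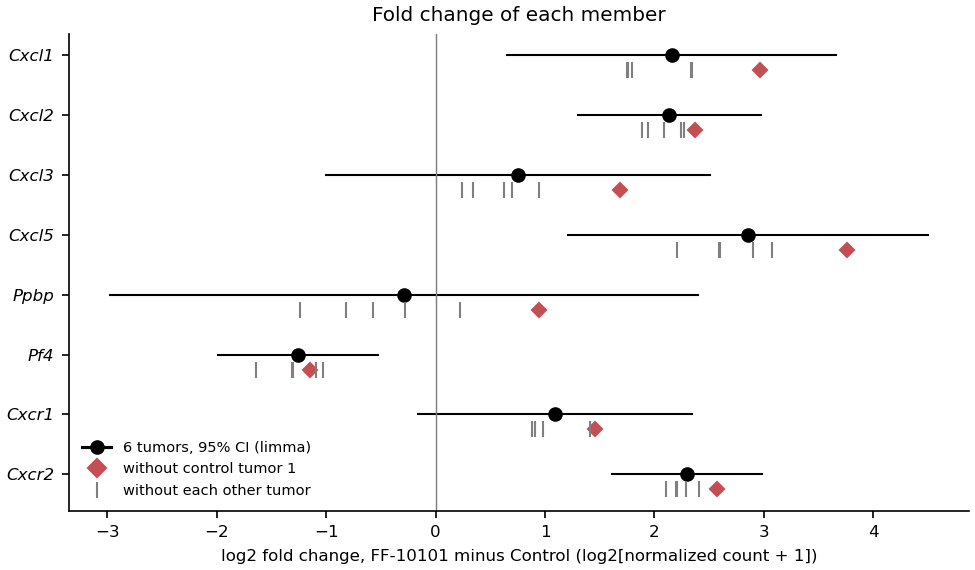
Log2 fold change of each gene (x axis, FF-10101 minus control, on log2 of the normalized count plus 1) from limma with its 95% confidence interval in black, without control tumor 1 as red diamonds and without each other tumor as grey ticks. Only the values of *Ppbp* lie on both sides of 0, and leaving out control tumor 1 gave the highest of the 6 left-out values for each gene except *Pf4*.

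The makeup of the ELR ligand transcripts was compared per length, since *Cxcl2* has a longest coding transcript of 1859 bases and *Cxcl1* of 953. Summed over *Cxcl1*, *Cxcl2*, *Cxcl3*, *Cxcl5* and *Ppbp*, the level was 505, 92.9 and 80.6 normalized counts per kb in control tumors 1, 2 and 3. It was 1132, 633 and 591 in the treated tumors. The lowest treated tumor was above control tumor 1, and the ratio of the means was 3.47 with all tumors and 9.05 without control tumor 1. *Cxcl1* made up a similar part of the sum in both groups, 48.2% ± 4.52 in the controls and 45.3% ± 4.0 in the treated tumors (SD, n = 3 each). *Cxcl5* made up 31%, 33.4% and 21.9% in the controls and 41.3%, 48.3% and 40.5% in the treated tumors, a higher share in each treated tumor. *Cxcl3* made up 12.3%, 8.06% and 10.8% in the controls and 2.72%, 3.38% and 5.77% in the treated tumors, a lower share in each. The share of *Cxcl3* therefore separated the groups although its level did not, and control tumor 1 did not stand apart in it. For *Ppbp* the share was 1.27% to 7.83% in the controls and 0.317% to 1.94% in the treated tumors, and for *Cxcl2* it was 3.0% to 12.6% and 6.17% to 6.87%, so both overlapped. By its shortest coding transcript *Cxcl2* took 4.93% to 19.4% in the controls and 9.92% to 11.0% in the treated tumors, which also overlapped. Shares of 1 sum are tied to each other, and no test was run on them.

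**Figure D3:**
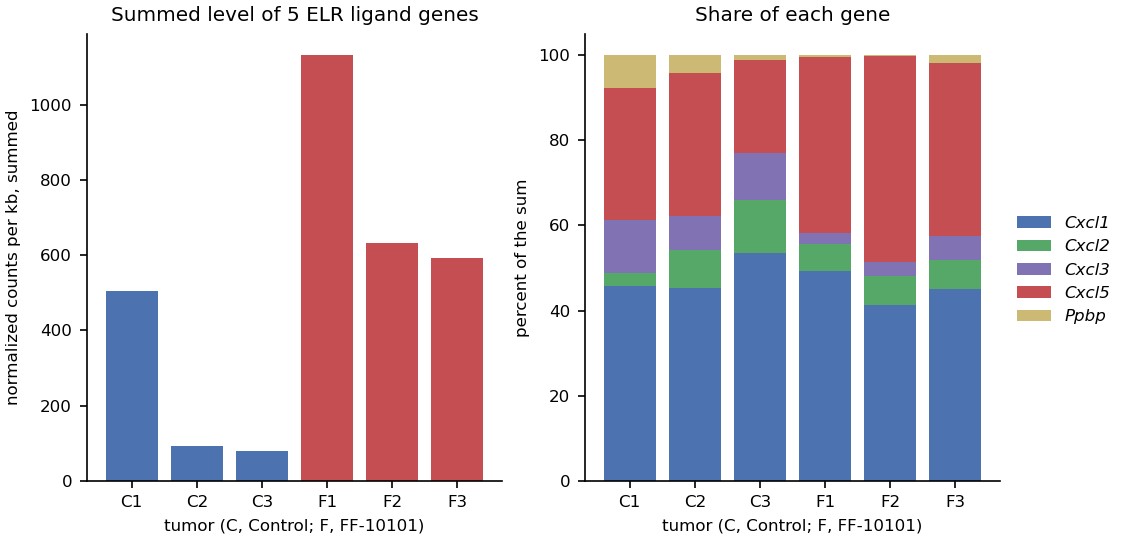
Left, normalized counts per kb summed over the 5 ELR ligand genes in each tumor (C, control; F, FF-10101); right, the share of each gene in that sum in percent. The sum is lowest in control tumors 2 and 3 and highest in FF-10101 tumor 1, and *Cxcl5* takes 40.5% or more in each treated tumor and at most 33.4% in the controls.

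*Ppbp* (ENSMUSG00000029372), the gene for platelet basic protein, from which the CXCR2 ligand NAP-2 is cut, was near the counting floor in most tumors. Control tumor 1 had 38 reads, or 42.8 normalized counts, and control tumors 2 and 3 had 4 reads and 1 read. The treated tumors had 7, 2 and 14 reads, or 5.35, 2.17 and 12.4 normalized counts. Apart from control tumor 1, the groups could not be separated at this depth. The log2 fold change was −0.29 (standard error 1.16, 95% confidence interval −2.98 to 2.40, adjusted p = 0.919 from limma) and turned to 0.95 once control tumor 1 was left out and to 0.22 once FF-10101 tumor 2 was. Of 11 platelet and megakaryocyte markers, 8 were under the minimum count and the summed level, 235 to 523 normalized counts in the controls and 529 to 672 in the treated tumors, was mostly *Itgb3*, an integrin that other cells also express. *Gp9*, a platelet glycoprotein, was at 0 in all 3 controls and had 0, 1 and 3 reads in FF-10101 tumors 1, 2 and 3, within the counting floor. Among the markers above the minimum, only *Itga2b* was higher in every treated tumor (log2 fold change 0.78), where 10.9% of all genes tested were.

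*Pf4* (ENSMUSG00000029373), platelet factor 4, was the most abundant of the 8 genes per length in both groups and the only member lower in every treated tumor. Control tumors 1, 2 and 3 had 1149, 920.4 and 915 normalized counts. The treated tumors had 331, 302 and 709. Control tumor 1 did not stand apart here, and FF-10101 tumor 3 was above the other treated tumors but under every control. The means were 995 ± 134 and 447 ± 227 (SD, n = 3 each), and limma gave a log2 fold change of −1.26 (standard error 0.32, 95% confidence interval −1.99 to −0.53, adjusted p = 0.229). Without control tumor 1 it was −1.15 (adjusted p = 0.0435 from limma), and over the fits that each left out a tumor it ran from −1.64 to −1.03. Of the genes tested, 1.07% had a smaller log2 fold change.

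The levels of *Pf4* were set beside the markers of the cells that could carry it. Markers of perivascular-type macrophages, such as the folate receptor *Folr2*, the scavenger receptor *Stab1* and the mannose receptor *Mrc1*, were lower in every treated tumor for 6 of 10 genes, against 9.37% of all genes tested (without control tumor 1 also 6, against 25.7%), with log2 fold changes of −2.42, −1.54 and −1.35 for these 3. *Lyve1* (−0.21), *Cd163* (−0.95), *Gas6* (−0.88) and *Timd4* (0.45) overlapped, and FF-10101 tumor 3 was above every control for *Cd163* (557 normalized counts). None of the 10 passed an adjusted p of 0.05 in limma, their median log2 fold change was −1.39, and their summed level was 9185 to 12280 normalized counts in the controls and 3044 to 5867 in the treated tumors. On the log2 scale, *Pf4* exceeded the mean of these 10 markers by 1.28, 1.25 and 1.31 in control tumors 1, 2 and 3 and by 1.64, 1.08 and 1.37 in the treated tumors. Relative to that list the difference between the groups was 0.079 (exact two-sided permutation p = 0.7, n = 3 each), and the relative levels of the groups overlapped. Relative to the 3 platelet markers above the minimum, *Itga2b*, *Itgb3* and *Gp1bb*, it was −1.57 (exact two-sided permutation p = 0.1, n = 3 each, the smallest possible). *Itgb3* is not particular to platelets, and *Gp1bb* had 54.2, 7.60 and 4.44 normalized counts in FF-10101 tumors 1, 2 and 3. The levels relative to both lists were chosen after the values were seen, and the lists with earlier results of these data known. They do not measure which cells carried *Pf4*, and the part of either cell type in its level was not tested.

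*Cxcr2* (ENSMUSG00000026180), the receptor of the ELR chemokines, had the smallest unadjusted p of the members and ranked 10 among all genes tested. Its normalized counts were 59.7, 35.9 and 31.1 in control tumors 1, 2 and 3 and 174, 205 and 234 in the treated tumors. Every treated tumor was far above the highest control. FF-10101 tumor 1, the highest of the treated tumors for *Cxcl1*, *Cxcl2* and *Cxcl5*, was the lowest of them for *Cxcr2*. The log2 fold change was 2.30 (standard error 0.30, 95% confidence interval 1.61 to 2.98, unadjusted p = 5.82e-05, adjusted p = 0.0813 from limma), and 0.637% of genes had a larger one. It passed limma's threshold without control tumor 1 (2.57, adjusted p = 0.000681) and with no minimum count (2.30, adjusted p = 0.0376), and it ran from 2.11 to 2.57 over the fits with a tumor left out. In its longest transcript, 7.76% of the stretches of 31 bases also occur in other genes.

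*Cxcr1* (ENSMUSG00000048480), the neighboring receptor gene, was hardly detected. It had 1, 0 and 0 reads in control tumors 1, 2 and 3 and 1, 2 and 3 reads in the treated tumors. With 1 read against 6 in all, the ratio of the groups after scaling was 4.85 with a 95% counting interval of 0.588 to 222.9, so a difference was not detectable at this depth. In the fit without a minimum count the log2 fold change was 1.09 (standard error 0.56, adjusted p = 0.485 from limma).

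Neutrophils are the cells best known for *Cxcr2*, and 13 of the 15 neutrophil markers above the minimum had a positive log2 fold change. The alarmins *S100a8* and *S100a9*, the histamine-forming enzyme gene *Hdc*, which mast cells also express, and *Lcn2* were higher in every treated tumor, with log2 fold changes of 1.61, 1.94, 2.41 and 2.0. These were the 4 of 15 with groups apart, none of the 15 passed an adjusted p of 0.05 in limma, and their median log2 fold change was 1.32. Of all genes tested, 10.9% were higher and apart. Once control tumor 1 was left out, 9 of the 15 were higher and apart, against 28.4% of all genes tested, and 1 was lower, against 25.7%. Among the neutrophil markers, the granulocyte colony-stimulating factor receptor gene *Csf3r* had 166 to 669 normalized counts in the controls and 594 to 658 in the treated tumors, and *Retnlg* had 91.2 to 373 and 124 to 648, so both overlapped. *Cd177* (log2 fold change 1.44) and *Mmp8* (2.88) overlapped too. There was no read of *Ngp* in any tumor and 1 read each of *Ly6g* and *Camp* in FF-10101 tumor 1. The 21 markers summed to 2267 to 2816 normalized counts in the controls and 3469 to 4131 in the treated tumors, with control tumor 1 the highest control. *Mmp9*, a protease gene that other cells also express, made up 780 to 1715 of these sums, and without it they were 2016, 985 and 898 in control tumors 1, 2 and 3 and 2183, 2516 and 3351 in the treated tumors. On the log2 scale *Cxcr2* lay −0.73, −0.18 and −0.40 from the mean of the 15 markers in control tumors 1, 2 and 3, and 0.74, 0.87 and 0.49 from it in the treated tumors. *Mmp9* (log2 fold change −0.13) and *G0s2* (−0.93), the only negative ones of the 15, were kept in this mean. The difference relative to the list was 1.14 with all tumors (exact two-sided permutation p = 0.1, n = 3 each) and 0.99 without control tumor 1. Relative to 8 monocyte markers, which summed to 12762 to 26347 in the controls and 21234 to 26441 in the treated tumors, it was 1.27 (exact two-sided permutation p = 0.1, n = 3 each). *Fn1*, which fibroblasts and sarcoma cells also express, made up 8085 to 15882 of these monocyte sums, and without it they were 4677 to 10541 in the controls and 7658 to 13571 in the treated tumors. Which cells carried *Cxcr2* was not tested.

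**Figure D4:**
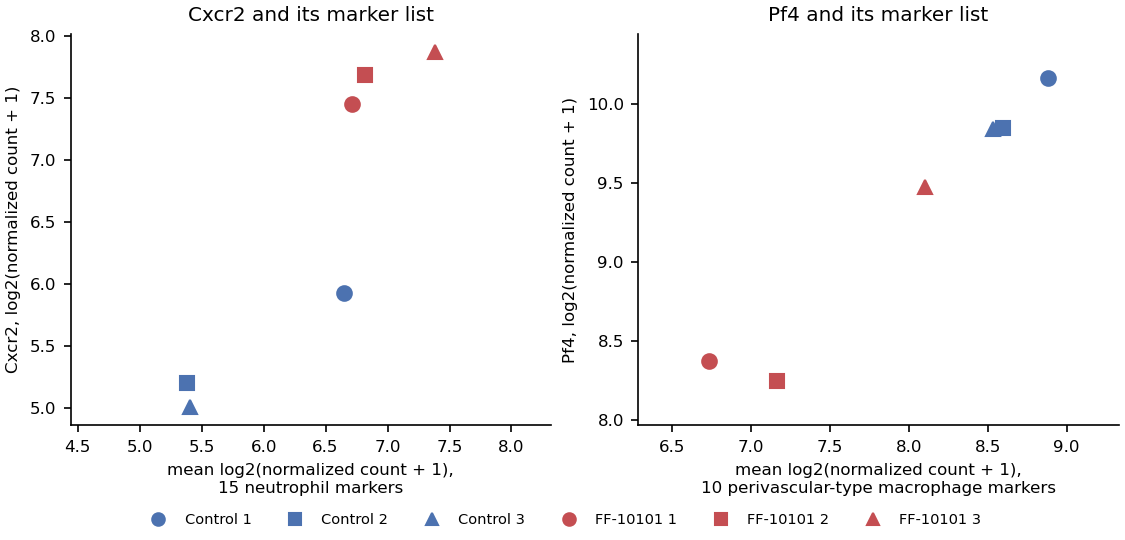
Left, *Cxcr2* against the mean of 15 neutrophil markers, and right, *Pf4* against the mean of 10 perivascular-type macrophage markers, all as log2 of the normalized count plus 1, with 1 symbol per tumor (blue, control; red, FF-10101). Control tumor 1 and FF-10101 tumor 1 have nearly the same neutrophil marker mean but differ in *Cxcr2*, while the 3 control tumors are highest in both *Pf4* and its marker list and FF-10101 tumor 3 comes next.

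Ordered by level per length in the treated tumors, *Pf4* came first (761 ± 387 normalized counts per kb, SD, n = 3), followed by *Cxcl1* (362 ± 171), *Cxcl5* (337 ± 117), *Cxcr2* (67.1 ± 9.79), *Cxcl2* (50.8 ± 16.5), *Cxcl3* (28.8 ± 6.62), *Ppbp* (6.14 ± 4.86) and *Cxcr1* at 1.29. The ranges of *Pf4* and *Cxcl1* overlapped, as did those of *Cxcl1* and *Cxcl5* and those of *Cxcr2* and *Cxcl2*. *Ppbp* and *Cxcr1*, whose nearest tumors had 2 and 3 reads, could not be separated at this depth, and the other neighbors in this order were apart. In the control tumors *Pf4* was at 1692 ± 227 normalized counts per kb (SD, n = 3) and above the range of every other member. *Cxcl1* (106 ± 109), *Cxcl5* (68.4 ± 76.6), *Cxcl3* (26.1 ± 31.1), *Ppbp* (14.8 ± 21.4), *Cxcr2* (13.9 ± 5.03) and *Cxcl2* (11.2 ± 3.59) followed, each overlapping with its neighbor, and *Cxcr1* came last at 0.259. The order of the lower ones rests on control tumor 1, since in control tumors 2 and 3 *Cxcr2* was at 11.8 and 10.2 normalized counts per kb, *Cxcl2* at 8.18 and 10.1, *Cxcl3* at 7.49 and 8.73 and *Ppbp* at 4.01 and 1.02. *Cxcl1* and *Cxcl5* were thus the main ELR ligand transcripts in both groups.

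Other proteins that bind CXCR2 or its ligands were read from a list of 3 genes. *Mif*, a cytokine that also binds CXCR2, had 3985, 3549 and 3605 normalized counts in the controls and 3179, 2601 and 3138 in the treated tumors, lower in each (log2 fold change −0.32, adjusted p = 0.328 from limma). *Ackr1*, a decoy receptor for these chemokines on venules, had 95.7, 3.26 and 15.5 in the controls and 19.9, 39.1 and 93.3 in the treated tumors, which overlapped. *Cxcl15*, a chemokine gene of the same cluster, was under the minimum count.

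Genes that induce the ELR chemokines, from interleukin 1 to NF-κB, numbered 19, of which 15 passed the minimum count. Of these 15, 14 had a positive log2 fold change, 4 were higher in every treated tumor, and none passed an adjusted p of 0.05 in limma; the median was 0.28. The 4 of 15 stand against 10.9% of all genes tested, and *Il1a* among them passed the minimum only through the treated tumors. The same holds for *Il6*, which overlapped (log2 fold change 1.75, adjusted p = 0.285 from limma) and was apart when control tumor 1 was left out. The count higher in every treated tumor was 11 of 15 when control tumor 1 was left out, a setting in which 28.4% of all genes were higher and apart, and 6 when FF-10101 tumor 1 was, where 39.2% of all genes were apart in either direction. The largest log2 fold change among these 4 was that of *Il1a* (4.50, 15.2 and 5.55 normalized counts in the controls and 21.4, 22.8 and 32.0 in the treated tumors, log2 fold change 1.64, adjusted p = 0.245 from limma). *Il1b*, another interleukin 1 gene, had 742, 429 and 556 in the controls and 1570, 857 and 788 in the treated tumors, and FF-10101 tumor 1 was again the highest. The interleukin 1 receptor gene *Il1r1* and the interleukin 17 adaptor gene *Traf3ip2* were the others, with log2 fold changes of 0.36 and 0.23. *Il17a* had no read in any tumor, and *Il17f*, *Csf2* and *Csf3* were under the minimum.

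The 18 genes that carry the signal of CXCR2 inside the cell, among them G protein, arrestin, kinase and integrin subunits, all passed the minimum count and split evenly, with 9 positive and 9 negative log2 fold changes and a median of −0.02. None passed an adjusted p of 0.05 in limma. The arrestin gene *Arrb2* (−0.43), the receptor kinase gene *Grk6* (−0.32) and *Itgam* (−0.73), the α chain of the integrin Mac-1, were lower in every treated tumor, and no gene of the list was higher in each, against 9.37% lower and 10.9% higher over all genes tested. Once control tumor 1 was left out, 8 genes were higher and 4 lower in every treated tumor, against 28.4% and 25.7% of all genes tested. Without control tumor 3 the count of positive log2 fold changes was 4 of 18.

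Genes of other cells that make or respond to these chemokines were counted in the same fit, and none passed an adjusted p of 0.05. The 10 fibroblast and sarcoma markers had a median log2 fold change of 0.65, with 4 higher in every treated tumor and none lower, where 10.9% of all genes tested were higher and apart. The 8 endothelial markers had a median of 1.20, with 2 higher in every treated tumor, and control tumor 1 had a summed level of 5312 normalized counts against 5245 to 6002 in the treated tumors. Of 6 mast cell markers above the minimum 5 were higher in every treated tumor, with a median of 1.68, and among the 8 monocyte markers 1 was, with a median of 1.25, against the same 10.9%. Among the mast cell markers *Fcer1a* passed the minimum only through the treated tumors. None of 4 keratinocyte markers above the minimum was apart, and *Krt5* and *Krt14* passed it only through FF-10101 tumor 1 (396 and 484 normalized counts), both at 0 in 4 of the 6 tumors. The median of 1.45 therefore rests on that tumor, and without it 1 of the 4 had a positive log2 fold change. With control tumor 1 left out, the count of genes higher in every treated tumor was 8 of 10 for the fibroblast and sarcoma, 8 of 8 for the endothelial, 6 of 6 for the mast cell and 5 of 8 for the monocyte markers, against 28.4% of all genes tested. Control tumor 1 was thus near the treated tumors in endothelial markers. It also lay within their range for the fibroblast and sarcoma sum (250954, against 196099 to 284345 normalized counts). The same held for the monocyte sum (26347, against 21234 to 26441). Control tumor 1 was the highest control for every one of the 8 members, for *Cxcr1* with 1 read. The part of each cell type in the members' levels was not tested.

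**Figure D5:**
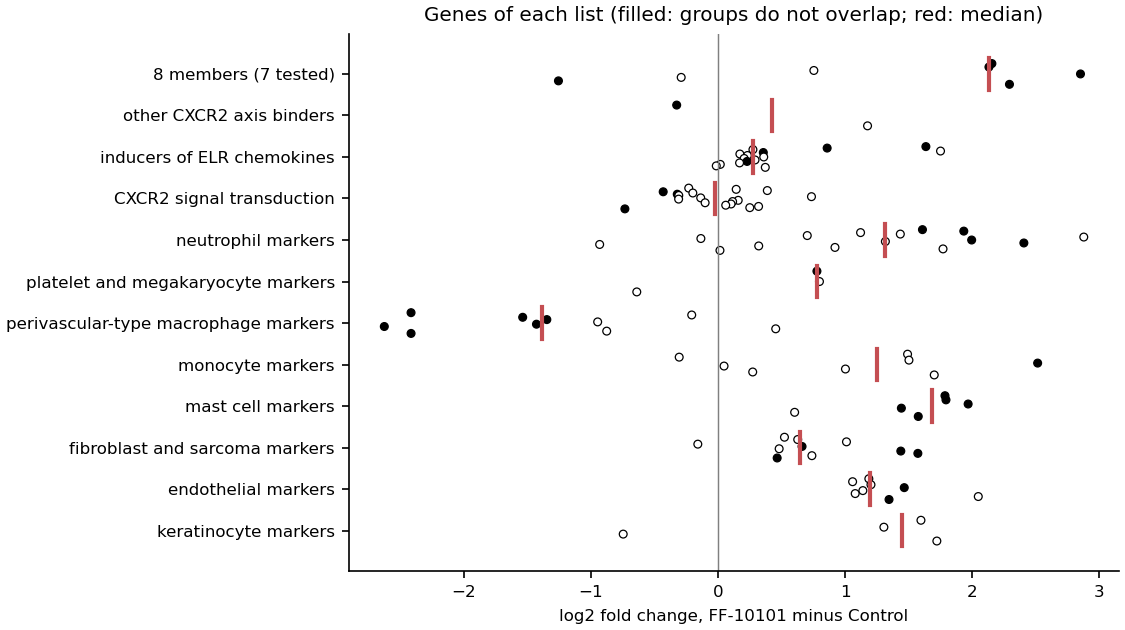
Log2 fold change (x axis, FF-10101 minus control) of each gene above the minimum count in the 8 members and 11 lists, with filled points for genes whose groups do not overlap and a red bar at the median. The 7 members tested have a median of 2.13, the perivascular-type macrophage markers of −1.39 and the signal transduction genes of −0.02.

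The genes whose pattern over the 6 tumors was most like that of each of the 7 members above the minimum, thus not *Cxcr1*, were listed among 12894 genes, by Pearson's r on the log2 scale, as a description in which all points share the 2 groups. For *Cxcl1* they were *Cxcl11*, a ligand of CXCR3, with 107, 28.3 and 32.2 normalized counts in the controls and 235, 125 and 117 in the treated tumors (r = 0.998), *Rnd1* (0.997) and the immediate early gene *Egr1* (0.996). For *Cxcl5* they were *Ufsp2* (0.998), *Mcam* (0.997) and *Ptprk* (0.996). For *Cxcl2* they were *Apol10b* (0.990), *Hmcn1* (0.986) and *Gca* (0.985), and for *Cxcl3* they were *Rufy3* (0.994), *Zfp821* (0.992) and *Slc3a2* (0.992). For *Cxcr2* they were *Dync1li2* (0.995), *Gdnf* (0.993) and *Dhtkd1* (0.990). For *Ppbp* they were *Tfip11* (0.996), *Rtn4* (0.983) and *Wbp2* (0.983). The nearest to *Pf4* were *Nxpe5* (0.975), *Ehhadh* (0.971) and *F13a1* (0.971), the last of which is 1 of the 10 perivascular-type macrophage markers. An r above 0.95 was reached by 201 genes for *Cxcl1*, 297 for *Cxcl5* and 17 for *Pf4*, so with 6 tumors many genes share such a pattern.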

How the data were processed

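Bulk RNA of MCA205 tumors was analysed, 3 control and 3 FF-10101–treated, grouped by the treatment in the labels. Per the methods and the processing notes, the authors trimmed reads with fastp (0.19.5), quantified them with Salmon (1.5.1) on GENCODE vM27 (GRCm39) and used DESeq2 (1.22.1). The authors deposited log2 values with the form of a variance-stabilizing transformation. Inverted, 100% of 325854 values were whole reads (tolerance 0.001), so normalized counts were recovered, although the test had been planned for normalized values as deposited. Identifiers were named from GENCODE release 21 (51484 of 54309 matched), whose transcripts also gave lengths and shared stretches of 31 bases. Salmon divides reads between similar transcripts by estimation.

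The 13963 genes whose mean reached 10 normalized counts were tested with limma (3.58.1, R 4.3.3; lmFit, eBayes with trend, group as sole term) on log2(normalized count + 1), a scale that understates changes of low genes, and p-values were adjusted by Benjamini-Hochberg over all genes tested. *Cxcr1* came from the fit without a minimum (24056 genes). The test was checked on simulated data. Single values had an exact two-sided permutation test. Named genes were the members, genes of the lists, and the 3 genes most like each member. The members and lists were chosen with earlier results of these data known. Alternatives were pseudocounts of 0.5 and 10, no minimum or 50, array weights, no trend, quantile normalization, scaling to the 75th percentile, limma-voom, the deposited values, the replicate block and each tumor left out. Levels relative to marker lists, shares by the shortest transcript, list counts without tumor 1 of either group, the neutrophil sum without *Mmp9* and the monocyte sum without *Fn1* were added after seeing the data. Floors and counting intervals cover counting error only.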

Additional observations from a re-analysis of the deposited data

How the results depend on the processing

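The log2 fold changes of the 8 members kept their direction in all 84 values from alternatives other than leaving out a tumor, and 7 of these newly passed an adjusted p of 0.05 in limma. They were *Cxcr2* with no minimum count (2.30, adjusted p = 0.0376, against 0.0599 to 0.184 in the other alternatives apart from array weights, the block and left-out tumors), and with array weights *Cxcl1* (2.60), *Cxcl2* (2.27), *Cxcl3* (1.40), *Cxcl5* (3.28), *Pf4* (−1.49) and *Cxcr2* (2.49). Array weights gave control tumor 1 the weight 0.139, control tumor 2 the weight 5.39 and FF-10101 tumor 2 the weight 8.08. That fit therefore leaned mostly on control tumor 2 and FF-10101 tumor 2, and it called 8365 of the 13963 genes tested. The count of genes called was 6, and it became 17 with no minimum, 3 with a minimum mean of 50 and 1 with the replicate block. With each tumor left out in turn it ran from 1 to 3051, with 3051 when control tumor 1 was out, 1 when control tumor 2 was and 3 when control tumor 3 or FF-10101 tumor 2 was. In those fits the log2 fold change ran from 1.75 to 2.96 for *Cxcl1*, 1.88 to 2.37 for *Cxcl2*, 0.24 to 1.69 for *Cxcl3*, 2.20 to 3.76 for *Cxcl5*, −1.24 to 0.95 for *Ppbp*, −1.64 to −1.03 for *Pf4*, 0.88 to 1.45 for *Cxcr1* and 2.11 to 2.57 for *Cxcr2*. *Ppbp* turned positive with control tumor 1 left out (0.95) or FF-10101 tumor 2 left out (0.22), and *Cxcl1*, *Cxcl2*, *Cxcl3*, *Cxcl5*, *Pf4* and *Cxcr2* passed the threshold without control tumor 1, where limma called 21.9% of all genes. No member passed it with any other tumor left out. The cause of these shifts was not tested. The count of all 8 members with groups apart ran from 5 to 7, with *Cxcr1*, at 6 reads or fewer a group, counted in it without tumor 1 of either group. *Pf4* relative to the perivascular-type macrophage markers turned to 0.079. By the shortest coding transcript *Cxcl2* took 10.5% of the ELR sum in treated tumors, against 6.56%. Over the genes tested, same-numbered tumors did not deviate together (r of −0.288, −0.0397 and −0.277). With 3 tumors a group these r cannot settle whether the numbers pair them, and the labels do not say. With the block the adjusted p from limma was 0.501 for *Cxcl1*, *Cxcl2*, *Cxcl5*, *Pf4* and *Cxcr2*. The block lowered the standard error of *Cxcl1* (0.65 to 0.34), *Cxcl2*, *Cxcl3* and *Cxcl5* (0.71 to 0.44). It raised that of *Ppbp*, *Pf4*, *Cxcr1* and *Cxcr2*. A minimum mean of 50 leaves out *Cxcl3*, *Ppbp* and *Cxcr1*. At these depths *Cxcr1* and *Ppbp* stay near the counting floor.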
